A study of Mus musculus with 10 samples.

Results

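The surfactant protein genes Sftpa1, Sftpb, Sftpc, Sftpd and Sfta2 were taken by their symbols in the array's platform annotation. All 5 symbols were found, each on 1 probe set, among 19505 genes with a symbol. The values came from lung RNA of male C57BL/6J mice aged 6 weeks, the inbred strain from which the B16F10 melanoma line derives. The labels describe 40 mice in 5 groups of 8, treated for 20 days. Mice of 1 group received no melanoma cells and received water as treatment. In the other 4 groups B16F10 cells were injected first, and the treatment was water, DTIC (dacarbazine, a DNA-alkylating melanoma drug) at 70 mg/kg/day, SQ-diEG at 5 mg/kg/day or SQ-diEG at 25 mg/kg/day. SQ-diEG is a compound named only so in the labels. Each group had 2 arrays, 10 in all, named below by the replicate number of their titles. Nothing in the labels tells if the RNA on an array was from a single mouse or a pool, nor where the cells were injected, so tests measure the spread between these arrays, which may be technical.

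Pulmonary surfactant is the film of phospholipid and protein that lowers surface tension in the air spaces and keeps them from collapsing at the end of a breath. Type II alveolar cells make its lipids and proteins, store them in lamellar bodies and secrete them. Sftpb and Sftpc encode the small hydrophobic proteins SP-B and SP-C, which are cut from larger precursors and spread the lipid film. Sftpa1 and Sftpd encode SP-A and SP-D, collectins that bind sugars on microbes and take part in lung defence and surfactant turnover. Sfta2 encodes a small secreted protein of lung epithelium. In normal mouse lung, transcripts of the surfactant proteins are among the most abundant of all, so these 5 genes serve as a check of what an array of lung RNA measured. In whole tissue, fewer cells of a type and less RNA per cell cannot be told apart.

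The stretch just before the gene start is shown for the 3 members with an entry in the promoter table used here, Sftpa1, Sftpb and Sfta2, because proximal promoters are the usual place to look for the lung-specific control of surfactant genes. Each run holds the 100 bases before the RefSeq start, 5′ to 3′ on the + strand of GRCm38.p6. The intervals are chr14:41131688-41131787 for Sftpa1, chr6:72304510-72304609 for Sftpb and chr17:35649608-35649707 for Sfta2. Capitals mark each match to TATAA, the core of a TATA box, or to TCAAG, which contains the CAAG core read by the lung transcription factor NKX2-1. Both strands were searched, and the 2 words cannot overlap each other.
Sftpa1: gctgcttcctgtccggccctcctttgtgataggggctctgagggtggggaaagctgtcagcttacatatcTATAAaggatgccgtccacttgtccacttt
Sftpb: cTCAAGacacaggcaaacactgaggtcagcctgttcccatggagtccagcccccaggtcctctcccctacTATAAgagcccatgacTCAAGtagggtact
Sfta2: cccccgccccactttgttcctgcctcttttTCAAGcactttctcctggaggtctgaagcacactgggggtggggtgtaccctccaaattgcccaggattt
Sftpa1 and Sftpb each had TATAA with its first base at -30 from the start, and Sfta2 had no match to it in this window. Sftpb had TCAAG at -99 and -14, and Sfta2 had it at -70. Sftpa1 had no TCAAG in this window. The shorter CAAG core was not searched for by itself, and the Sftpa1 run does hold it on the - strand. Of 32851 promoters of the same length in the table, 10.2% held TATAA, 14.6% held TCAAG and 1.64% held both. A match is a description of letters and does not mark a bound site.

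The deposited values were on the log2 scale, 1 per probe set and array. Arrays shared little of their order of genes: Pearson's r between arrays over genes lay between 0.13 and 0.25, with a mean of 0.21 within groups and 0.20 between groups. The median of all genes lay between 7.33 and 7.40, below the median of 5222 negative-control probe sets, which lay between 7.56 and 7.74. The 95th percentile of the negative controls lay between 10.67 and 11.05. It was exceeded on at least 1 array by 513 of 19505 genes (2.63%) and on all arrays by 0. The 4 hybridization controls averaged 8.47 and 8.68 on arrays of uninjected mice and between 9.10 and 10.99 on the others, and the part of this in the differences below was not tested. Whether each row of the deposited table carries the right probe set name and each column the right array was not tested, so a value below is that of the row which the annotation assigns to the gene. A percentile below is the share of genes of the same array with a lower value. Probe sets differ in how well they bind, so the level of 1 member is not set against that of another.

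As a group, the 5 genes did not stand among the highest values on these arrays. The mean of Sftpa1 over arrays lay above that of 94.1% of genes, while its percentiles on single arrays averaged 71.7 (SD 29.5). Of their 50 values, 24 (48%) exceeded the mean of the background probe sets of their array, against 56.0% of the values of all genes. Above the negative-control median were 19 (38%), against 40.8% over all genes. Of the members' values, 1 lay above the 90th percentile of negative controls and 0 above the 95th, shares of 1.61% and 0.350% over all genes. The members' percentiles averaged 49.7, with an SD of 13.4 between the means of the 10 arrays. The high levels known from lung were not seen for these genes as a group. Of the 50 values, 21 lay above the gene median of their array. On the first uninjected array all 5 members did, at percentiles of 55.2 to 92.6, but on the second uninjected array 2 did.

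**Figure D1:**
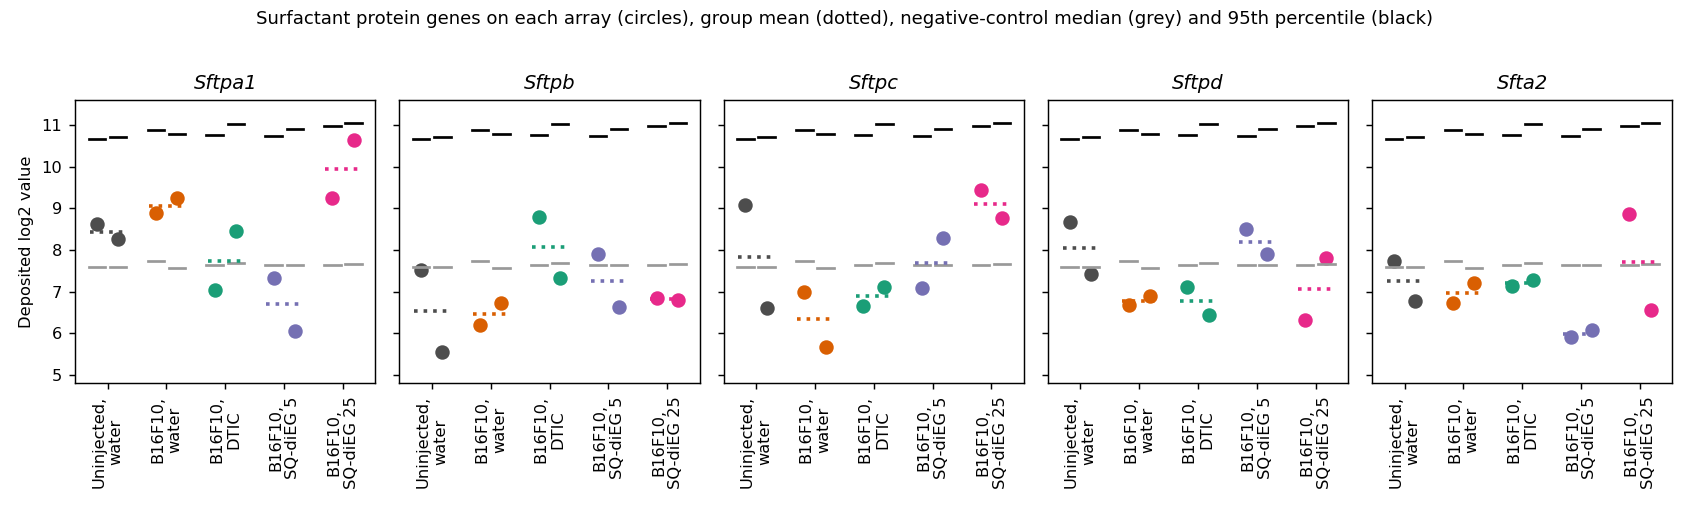
Deposited log2 value of each surfactant protein gene (panels) on each array (circles, replicate 1 left of replicate 2) in the 5 groups, with the group mean (dotted) and the median (grey) and 95th percentile (black) of that array's negative controls. The circles lie on both sides of the grey lines, and none of the 50 reaches a black line.

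Sftpb encodes the hydrophobic protein without which newborn mice cannot breathe. Its values, replicate 1 then 2, were 7.52 and 5.54 in uninjected mice, 6.21 and 6.72 in injected mice given water, 8.80 and 7.32 with DTIC, 7.90 and 6.63 with SQ-diEG 5, and 6.85 and 6.80 with SQ-diEG 25. The highest value was the first DTIC array and the lowest the second uninjected array. Group means were 6.53 ± 1.40 (SD, n = 2 here and in every group mean) in uninjected mice, 6.46 ± 0.36 with water after injection, 8.06 ± 1.05 with DTIC, 7.27 ± 0.90 with SQ-diEG 5 and 6.83 ± 0.03 with SQ-diEG 25. On its arrays Sftpb ranged from percentile 2.12 to 88.5, with a median of 30.5, and exceeded the gene median on 3 of 10.

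Sftpc encodes SP-C, the protein most restricted to type II cells. It read 9.08 and 6.60 in uninjected mice, 7.00 and 5.68 in injected mice given water, 6.65 and 7.12 with DTIC, 7.09 and 8.29 with SQ-diEG 5, and 9.44 and 8.77 with SQ-diEG 25. Both SQ-diEG 25 arrays and the first uninjected array were high, and both uninjected values lay within the range of the injected groups. Group means were 7.84 ± 1.75, 6.34 ± 0.93, 6.89 ± 0.34, 7.69 ± 0.84 and 9.10 ± 0.47 in the same order. The percentile ran from 3.34 to 94.9 with a median of 40.1, and 4 arrays exceeded the gene median. The SD of Sftpc over the 10 arrays, 1.24, was larger than that of 87.1% of genes, whose median SD was 0.94.

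Sftpa1, for SP-A, read 8.61 and 8.27 in uninjected mice, 8.88 and 9.25 in injected mice given water, 7.03 and 8.46 with DTIC, 7.33 and 6.06 with SQ-diEG 5, and 9.25 and 10.64 with SQ-diEG 25. It was high on both arrays of the uninjected, water and SQ-diEG 25 groups and low on both SQ-diEG 5 arrays, and the DTIC pair held 1 value of each kind. Group means were 8.44 ± 0.25, 9.06 ± 0.26, 7.74 ± 1.01, 6.70 ± 0.90 and 9.94 ± 0.98. Its percentiles spanned 10.3 to 99.3 with a median of 83.2, and 7 arrays exceeded the gene median. By its mean over arrays it ranked 1149 among 19505 genes, and on the second SQ-diEG 25 array it ranked 147. That value was the 1 member value above the 90th percentile of the negative controls. The SD of Sftpa1 over the arrays, 1.30, exceeded that of 91.4% of genes.

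Sftpd, for SP-D, read 8.67 and 7.43 in uninjected mice, 6.68 and 6.89 in injected mice given water, 7.11 and 6.43 with DTIC, 8.50 and 7.91 with SQ-diEG 5, and 6.32 and 7.81 with SQ-diEG 25. The water and DTIC arrays after injection were all low, and both SQ-diEG 5 arrays lay above them. Group means were 8.05 ± 0.88, 6.78 ± 0.15, 6.77 ± 0.48, 8.20 ± 0.41 and 7.07 ± 1.06. Percentiles ran from 16.8 to 86.6 with a median of 46.6, and 5 arrays exceeded the gene median.

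Sfta2 read 7.73 and 6.77 in uninjected mice, 6.72 and 7.21 in injected mice given water, 7.13 and 7.27 with DTIC, 5.90 and 6.08 with SQ-diEG 5, and 8.86 and 6.57 with SQ-diEG 25. Both SQ-diEG 5 arrays were the lowest of the 10, and the SQ-diEG 25 pair held the highest of all and the lowest outside the SQ-diEG 5 group. Group means were 7.25 ± 0.68, 6.96 ± 0.35, 7.20 ± 0.10, 5.99 ± 0.13 and 7.71 ± 1.62. Its percentiles ran from 6.85 to 88.7 with a median of 34.9, and 2 arrays exceeded the gene median.

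Placed in order of group means, neighbouring groups of a member differed by 0.01 to 1.26, the widest being Sftpc with SQ-diEG 25 over uninjected mice. The standard error of a difference between groups was 0.95 to 0.97 for the members, so no order of adjacent groups was resolved. SQ-diEG 25 had the highest mean of Sftpa1, Sftpc and Sfta2, DTIC that of Sftpb, and SQ-diEG 5 that of Sftpd. Single arrays also differed in how many members were high. The first uninjected array had all 5 above its gene median and a mean percentile of 76.5, while the second had 2 and a mean of 37.2. On each of the 4 arrays of injected mice given water or DTIC, 1 member was above the median, Sftpa1 on 3 of these arrays and Sftpb on 1. The SQ-diEG 25 arrays had 3 each, with mean percentiles of 65.3 and 59.9, and the SQ-diEG 5 arrays had 2 each.

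**Figure D2:**
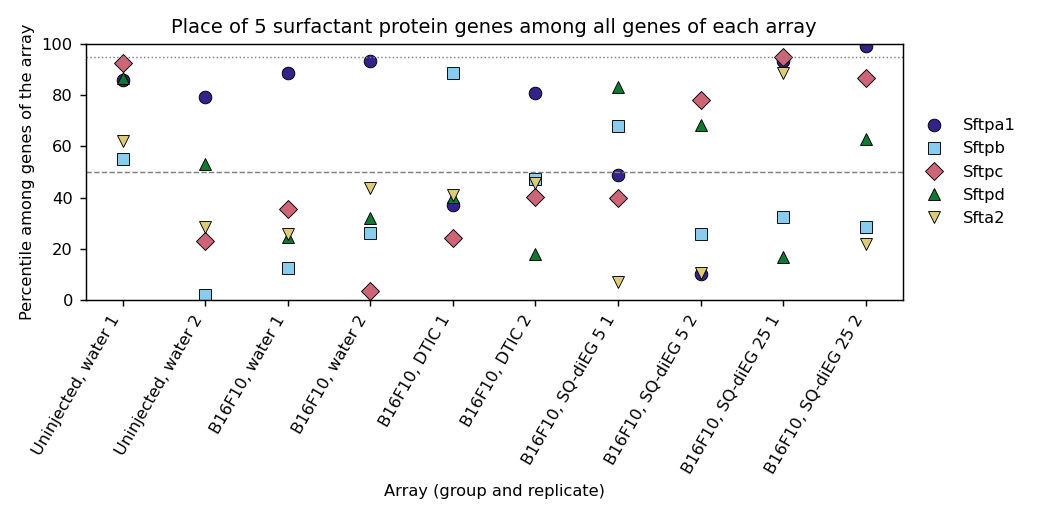
Percentile of each surfactant protein gene (symbols) among the 19505 genes of the same array, for the 10 arrays; the dashed line is the median gene and the dotted line the 95th percentile. All 5 symbols lie above the dashed line on the first uninjected array alone, and 1 value, Sftpa1 on the second SQ-diEG 25 array, lies above the dotted line.

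Injected mice given water were set against uninjected mice to ask what the melanoma cells changed in lung. In this comparison Sftpa1 was 0.62 higher on the log2 scale and the other 4 members were lower by point estimate, but none passed. Sftpc differed by -1.50 (SE 0.97, 95% interval -3.45 to 0.44, limma adjusted p = 0.909), with overlapping arrays. Sftpd differed by -1.26 (SE 0.95, 95% interval -3.16 to 0.64, limma adjusted p = 0.935), and Sftpb and Sfta2 differed by -0.07 and -0.29. By limma, 0 of 19011 genes passed an adjusted p of 0.05 (0% called), and 1092 had an unadjusted p under it, none of them a member. By chance, 951 are expected under it in this and in each later comparison. The arrays of the groups did not overlap for 2 members, Sftpa1 and Sftpd, against 34.3% of all genes. The members' median difference was -0.29 and that of all genes 0.05. Without the first uninjected array, Sftpc differed by -0.26, Sftpd by -0.64, Sftpb by 0.92 and Sfta2 by 0.19. Without the second, Sftpc differed by -2.74, Sftpb by -1.06 and Sfta2 by -0.76. Without the first water array Sftpb differed by 0.19 and Sfta2 by -0.04, and without the second Sftpc differed by -0.84, Sftpb by -0.32 and Sfta2 by -0.53.

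The DTIC group was set against injected mice given water. Sftpb had the widest difference, 1.60 (SE 0.96, 95% interval -0.33 to 3.53, limma adjusted p = 0.995). Sftpa1 differed by -1.32, Sftpc by 0.55, Sfta2 by 0.24 and Sftpd by -0.01. By limma, 0 of 19011 genes passed (0% called) and 925 had an unadjusted p under 0.05, none of them a member. Arrays did not overlap for 2 members, Sftpa1 and Sftpb, against 32.4% of genes. The members' median difference was 0.24 and that of all genes -0.01. The sign of the Sftpc, Sftpd and Sfta2 differences turned on single arrays. Without the second water array Sftpc differed by -0.11, Sftpd by 0.09 and Sfta2 by 0.48, and without the first Sftpc differed by 1.21, Sftpd by -0.12 and Sfta2 by -0.01. Without the first DTIC array Sftpb differed by 0.86, Sftpa1 by -0.61 and Sftpd by -0.35, and without the second Sftpa1 differed by -2.03, Sftpc by 0.31 and Sftpd by 0.32.

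SQ-diEG at 5 mg/kg/day was set against the same injected mice given water. Sftpa1 was lower by point estimate, with a difference of -2.37 (SE 0.95, 95% interval -4.28 to -0.46, limma adjusted p = 0.922). It ranked 291 by p among 19011 genes. Sftpd differed by 1.42 (SE 0.95, limma adjusted p = 0.969), Sftpc by 1.35, Sftpb by 0.80 and Sfta2 by -0.97. By limma, 0 genes passed (0% called) and 1005 had an unadjusted p under 0.05, of which 1 was a member, Sftpa1. Arrays did not overlap for 4 members, all but Sftpb, against 33.5% of genes. The members' median difference was 0.80 and that of all genes -0.05. Without the first SQ-diEG 5 array Sftpb differed by 0.17, and without the second Sftpb differed by 1.44 and Sftpc by 0.75. Without the second water array Sftpc differed by 0.69.

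SQ-diEG at 25 mg/kg/day was set against them as well. All 5 point estimates were above 0, and Sftpc had the widest, 2.77 (SE 0.97, 95% interval 0.82 to 4.71, limma adjusted p = 0.941), ranking 118 by p. Sftpa1 differed by 0.88, Sfta2 by 0.75, Sftpb by 0.36 and Sftpd by 0.28. By limma, 0 genes passed (0% called) and 997 had an unadjusted p under 0.05, of which 1 was a member, Sftpc. Arrays did not overlap for 3 members, Sftpa1, Sftpb and Sftpc, against 33.4% of genes. The members' median was 0.75 and that of all genes -0.02. Without the second SQ-diEG 25 array Sftpd differed by -0.47, Sftpa1 by 0.19 and Sfta2 by 1.89, and without the first Sfta2 differed by -0.39, Sftpa1 by 1.57 and Sftpd by 1.03. Without the first water array Sftpb differed by 0.11 and Sftpd by 0.18, and without the second Sftpb differed by 0.62. The 3 treated groups share the same 2 control arrays, so their differences are not independent of each other.

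The doses of SQ-diEG were also compared directly, 25 against 5 mg/kg/day. Sftpa1 differed by 3.25 (SE 0.95, 95% interval 1.34 to 5.16, limma adjusted p = 0.909), ranking 20 by p among 19011 genes. Sfta2 differed by 1.72 (SE 0.96, 95% interval -0.19 to 3.64, limma adjusted p = 0.922), Sftpc by 1.42, Sftpd by -1.14 and Sftpb by -0.44. By limma, 0 genes passed (0% called) and 983 had an unadjusted p under 0.05, of which 1 was a member, Sftpa1. Arrays did not overlap for 4 members, all but Sftpb, against 33.5% of genes. The members' median was 1.42 and that of all genes 0.03. Without the first SQ-diEG 5 array Sftpb differed by 0.19 and Sftpc by 0.82, and without the second Sftpb differed by -1.07. Without the first SQ-diEG 25 array Sfta2 differed by 0.58 and Sftpd by -0.39, and without the second they differed by 2.86 and -1.88. Of the 25 differences of the members, which share arrays, 3 had an unadjusted 95% interval that did not include 0. Over all genes, 4.87% to 5.74% had an unadjusted p under 0.05 in a comparison by limma.

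**Figure D3:**
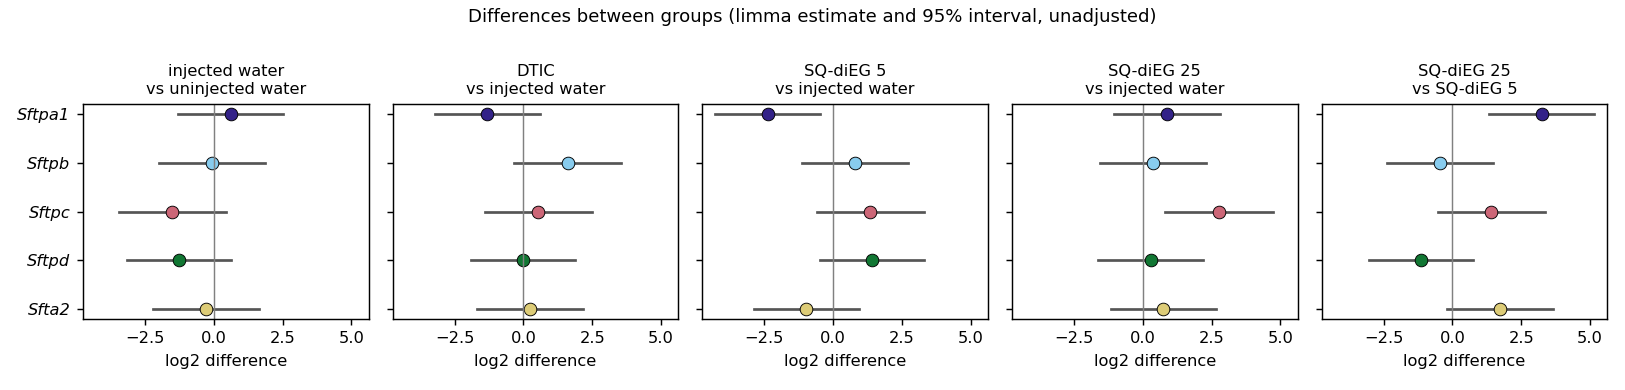
Difference between group means of each surfactant protein gene on the log2 scale (points, limma) with its unadjusted 95% interval (bars), for the 5 comparisons. The interval of Sftpa1 lies off 0 with SQ-diEG 5 against water and between the doses, and that of Sftpc with SQ-diEG 25 against water. None of the 25 passed adjustment over 19011 genes. Of all genes, 4.87% to 5.74% had an interval off 0 in a comparison.

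Taking the 5 groups at once, limma's moderated F test gave adjusted p = 0.917 for Sftpa1, 0.949 for Sftpc, 0.962 for Sftpd, and 0.970 for Sftpb and Sfta2. By this test 0 of 19011 genes passed, and 973 had an unadjusted p under 0.05, against 951 expected by chance.

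No agreement between the members from array to array was resolved with 10 arrays. Over the 10 arrays, Pearson's r between members ranged from -0.50 for Sftpd and Sfta2 to 0.40 for Sftpa1 and Sfta2, with a median of 0.13 over 10 pairs. In 7 pairs r was above 0 and in 3 below, and 0 of 10 passed the permutation test by Pearson's r or Spearman's rho, with 0 also at an unadjusted p under 0.05. For Sftpd and Sfta2, rho was -0.49, with a permutation p of 0.146 for r and 0.155 for rho (adjusted p = 0.725 and 0.675). Leaving out the 2 arrays farthest from the median of Sftpd gave r = -0.77. The 2 hydrophobic proteins Sftpb and Sftpc had r = 0.02 and rho = 0.26, with a permutation p of 0.964 and 0.471 (adjusted p = 0.964 and 0.675), and r = 0.09 without 2 arrays. The collectins Sftpa1 and Sftpd had r = -0.26 and rho = -0.38, with a permutation p of 0.465 and 0.276 (adjusted p = 0.725 and 0.675), and r = -0.44 without 2 arrays. For Sftpa1 and Sfta2, rho was 0.39 (permutation p = 0.247 for r and 0.263 for rho, adjusted p = 0.725 and 0.675), and r = 0.57 without 2 arrays. For Sftpc and Sfta2, r was 0.39 over 10 arrays and -0.54 without 2 arrays. The r of 4 pairs changed sign when taken on deviations from the group means. On these it ran from -0.44 for Sftpa1 and Sfta2 to 0.70 for Sftpb and Sftpd. The 2 deviations of a group mirror each other, so each such r rests on 1 independent value per group.

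**Figure D4:**
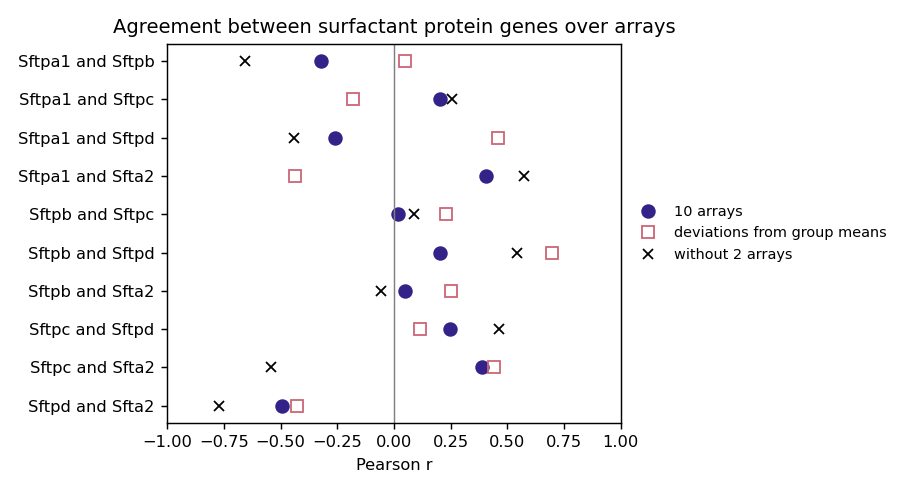
Pearson's r over arrays for each of the 10 pairs of surfactant protein genes: over all 10 arrays (filled circles), on deviations from the group means (squares) and without the 2 arrays farthest from the median of the first gene (crosses). The filled circles lie between -0.50 and 0.40 on both sides of 0, and crosses or squares of several pairs lie on the other side of 0 from their circle.

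For each member, other genes followed its values over the 10 arrays more closely than any other member did. With 19010 genes to choose from and 10 arrays, this outcome was nearly fixed in advance, and no conclusion is drawn from it. As a description with no test, the 3 most alike by Pearson's r were Tnip3 (0.89), Olfr780 (0.89) and Gemin5 (0.88) for Sftpa1, and Crkl (0.92), Yrdc (0.91) and Ank2 (0.90) for Sftpb. They were Zfp112 (0.94), Ints1 (0.92) and Rab3gap2 (0.91) for Sftpc, Zcchc12 (0.92), Zfp300 (0.91) and Mfsd9 (0.91) for Sftpd, and Txlnb (0.94), Igsf1 (0.91) and Olfr23 (0.91) for Sfta2. The nearest other member stood at place 2600 of 19010 for Sftpa1 (Sfta2), 5311 for Sftpb (Sftpd), 2390 for Sftpc (Sfta2), 4667 for Sftpd (Sftpc) and 2364 for Sfta2 (Sftpa1). Sftpa1 and Sftpd lie on either side of Mbl1, a mannose-binding collectin, in the RefSeq gene order, and Mbl1 had r = 0.22 with Sftpa1 and 0.21 with Sftpd.

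Other genes of type II cells also lay across the range of the array. Of a list of 20 type II genes, 19 were on the array, with a median percentile of 50.9 and array medians between 33.8 and 63.4. Of their 190 values, 0 lay above the 95th percentile of negative controls. Medians of single genes ran from 15.9 (Abca3, the lipid transporter of lamellar bodies) to 87.8 (Cldn18, a tight junction protein). The median r of the 19 genes with a member was 0.05 for Sftpa1, 0.02 for Sftpb, 0.05 for Sftpc, -0.14 for Sftpd and -0.12 for Sfta2. Over all genes, the 5th and 95th percentiles of r with a member lay near -0.55 and 0.56 for Sftpa1.

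The other lists describe what surrounds the members in the pathway. Genes that process, store or make surfactant (18 on the array) had a median percentile of 51.2, regulators of surfactant genes (16) 44.0, and genes of surfactant clearance and its receptors (16) 50.4. Among the regulators, single genes ran from 20.1 (Sox9) to 65.2 (Cebpa), with Nkx2-1, which drives several surfactant genes, at 39.7. Relatives by fold had 45.9 for collectins and ficolins (7 genes), 57.9 for saposin-domain genes (6), the fold of SP-B, and 32.6 for BRICHOS-domain genes (9), the domain of the SP-C precursor. Spi1, a macrophage factor of the clearance list, lay above the 95th percentile of negative controls on 1 array.

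Markers of other lung cells lay in the same band. Their median percentile was 49.3 for type I alveolar cells (11 genes), 49.8 for club and secretory cells (9), 35.1 for ciliated cells (9), 49.3 for endothelial cells (10), 44.8 for fibroblasts (9), 53.5 for alveolar macrophages (8), 46.1 for red blood cells (2) and 49.2 for melanocytes and melanoma (10). Genes known mainly from liver and pancreas (12) had 46.4. Medians of single genes ran from 32.8 (Bpifa1) to 71.5 (Scgb1a1, the abundant secretory protein of club cells) in the club cell list, and from 35.7 (Cyp2e1) to 71.4 (Fgb) in the liver and pancreas list. Genes of nearly all cells (12) had a median of 73.6, and single genes ran from 24.9 (Tubb5), 29.5 (Ftl1), 33.0 (Tbp) and 44.7 (Pgk1) to 97.3 (Eef1a1) and 98.7 (Gapdh). Gapdh lay above the 95th percentile of negative controls on 4 arrays and Eef1a1 on 2.

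By limma, 0 genes of the 17 lists passed in any of the 5 comparisons. Of 19 type II genes, 10 were higher and 9 lower by point estimate in injected against uninjected mice, with a median difference of 0.13 against 0.05 over all genes. With DTIC 12 were higher and 7 lower (median 0.39), with SQ-diEG 5 11 and 8 (0.08), with SQ-diEG 25 13 and 6 (0.55), and between the doses 12 and 7 (0.10). Those with the smallest p in injected against uninjected mice were Rab27a (2.20, SE 0.94, limma adjusted p = 0.812) and Etv5 (-2.29, SE 1.01, limma adjusted p = 0.827). With DTIC they were Lgi3 (2.93, SE 0.95), Il33 (2.62, SE 0.94) and Rab27a (-2.44, SE 0.94), all at limma adjusted p = 0.919. With SQ-diEG 25 against water they were Hc (2.28, SE 0.97) and Egfl6 (2.14, SE 0.95), both at limma adjusted p = 0.941. Muc1 came next there (-1.57, SE 0.98, limma adjusted p = 0.955). Among the regulators, Erbb4 differed by 3.25 (SE 0.95, limma adjusted p = 0.720) in injected against uninjected mice. It encodes a receptor of neuregulin in maturing type II cells. Its adjusted p equalled the smallest over all genes there, a value that genes of different unadjusted p can share. Among the 18 processing genes the counts higher and lower were 8 and 10, 12 and 6, 10 and 8, 8 and 10, and 12 and 6, in the order of the 5 comparisons. Among the 16 clearance genes they were 7 and 9, 6 and 10, 10 and 6, 8 and 8, and 10 and 6, and the widest difference named, Spi1 between the doses, was -3.24 (SE 1.07, limma adjusted p = 0.909).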

How the data were processed

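The deposited table held log2 values. The submitters' processing notes name Affymetrix Expression Console, Transcriptome Analysis Console and RMA, with no version or order. The genome build was not given in the sources read. The labels' protocols name 3' chemistry, while the identifiers have the form of whole-transcript arrays, so what each probe measured is uncertain. Of 28846 probe sets, 6640 were controls and 19572 had 1 symbol in the platform annotation, 0 had several and 2634 had none. The probe set with the highest mean stood for a gene, which gave 19505 genes. A gene was tested if 2 or more arrays had it at or above their 40th percentile over probe sets that were not controls. That kept 19011 genes, with all 5 members, and removed 494. R 4.3.3 and limma 3.58.1 fitted 1 group-means model over all 10 arrays (lmFit, eBayes), with Benjamini-Hochberg adjustment over 19011 genes. Pairs of members were tested by two-sided permutation (100000 resamples) and adjusted over 10 pairs. The number of arrays limits the precision. The fit was tested on simulated data with 40 differences of each size planted between SQ-diEG 25 and injected water. It called 0% of differences of 1 on the log2 scale, 5% of 2, 70% of 4 and 100% of 6, with 9 false calls. All planted differences were present together, which eases the adjusted threshold. A lone difference would be called less often, so these shares may be too high for a member. Differences of 2 or less could thus seldom pass, and a gene that did not pass is not shown to be unchanged. Members always, and at most 3 genes of a list by the smallest p in a comparison, and the 3 genes most like each member, were named; level examples in the lists were chosen after their values were seen. The members and the 17 lists were chosen with earlier results of these data known. Promoters came from RefSeq on GRCm38.p6, with 3 of 5 members matched.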

Additional observations from a re-analysis of the deposited data

How the results depend on the processing

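No member passed under any alternative: quantile normalization, median centring, no filter, a 60th percentile filter, the mean of probe sets, a trended and robust spread, only the 2 groups compared, the replicate block, or leaving out 1 array. The smallest limma adjusted p of a member was 0.756, for Sftpa1 between the doses without the first SQ-diEG 5 array. Of the alternatives that kept all arrays, normalization and centring alone could move a member's difference, and 0 of those 50 values changed sign. Of 100 values that left out an array of the groups compared, 10 changed sign, in 8 of 25 differences, and the report gives those moved by over 1.5 times. Leaving out 1 array moved Sftpb between -1.06 and 0.92 and Sfta2 between -0.76 and 0.19 in injected against uninjected mice. With DTIC it moved Sftpc between -0.11 and 1.21, Sftpd between -0.35 and 0.32 and Sfta2 between -0.0073 and 0.48. With SQ-diEG 25 against water it moved Sftpd between -0.47 and 1.03 and Sfta2 between -0.39 and 1.89, and between the doses Sftpb between -1.07 and 0.19. Where this left 1 array in a group, that array is assumed to vary like the others. Above the median of the negative controls were 19 member values and above their 90th percentile 1, against 0 above the 95th; the change follows from the lower thresholds. With the replicate block, 0 genes passed in each comparison, and Sftpc with SQ-diEG 25 differed by 2.77 (limma adjusted p = 0.927). Same-numbered arrays deviated together with r between -0.02 and 0.05 over pairs of groups. The hybridization controls averaged higher on replicate 2 than on replicate 1 in every group, for example 9.22 and 10.28 with DTIC. Whether same-numbered arrays share a run was not tested. Signals near the negative controls, 2 arrays a group and the untested match of table rows to probe sets limit every comparison.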
